A study of Homo sapiens with 8 samples.

Results

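Peaks of 2 heterochromatin proteins were measured over 8 very large human genes that lie at common fragile sites: FHIT, WWOX, MACROD2, IMMP2L, LRP1B, CSMD1, NBEA and LSAMP. They were chosen by name from 19974 RefSeq protein-coding genes on chromosomes 1 to 22 and X, with peak coverage values of these data already known. Among those values was the low HP1a coverage at FHIT with HP1b knocked down, so the HP1a values of that comparison are given as a description with no test. The peaks came from ChIP-seq in MCF10A, an established epithelial line from human breast that does not form tumours. The study had 8 libraries in 4 groups of 2 replicates, and no agent other than the knockdowns is named for these libraries. The groups were HP1a ChIP in wild-type cells, HP1a ChIP in cells with HP1b knocked down, HP1b ChIP in wild-type cells and HP1b ChIP in cells with HP1a knocked down. All 4 share the MCF10A background. The way the knockdowns were made, the level of protein left and the number of clones were, in the sources used here, not given, and peak lists measure neither the level of either protein nor the expression of marker genes of the cells. The replicates are not stated to be separate cultures, so p-values measure only the spread between these libraries, which may be technical.

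HP1a (gene CBX5) and HP1b (gene CBX1) are paralogous proteins that bind the repressive methyl mark on histone tails through a chromodomain and bind each other and further partners through a chromoshadow domain. Common fragile sites are stretches of the genome that break or form gaps on metaphase chromosomes when DNA replication is slowed. Many of them lie inside very long genes, where replication origins are sparse and transcription and replication can meet, and deletions at these places are frequent in tumours and tumour cell lines.

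The 8 genes fall into groups by the work of their proteins. FHIT encodes a hydrolase of dinucleoside polyphosphates, WWOX an oxidoreductase with WW domains, MACROD2 a hydrolase that removes ADP-ribose from proteins, and IMMP2L a subunit of a peptidase of the inner mitochondrial membrane. LRP1B encodes a receptor of the low-density lipoprotein receptor family, CSMD1 a membrane protein with CUB and sushi domains that restrains complement, and LSAMP a cell adhesion molecule of the immunoglobulin superfamily. NBEA encodes neurobeachin, a scaffold protein of membrane traffic. On GRCh38.p14, FHIT spans chr3:59747277-61251452 (1504 kb, minus strand), WWOX chr16:78099654-79212667 (1113 kb, plus strand), MACROD2 chr20:13995516-16053197 (2058 kb, plus strand) and IMMP2L chr7:110662644-111562492 (899.8 kb, minus strand). LRP1B spans chr2:140231423-142131016 (1900 kb), NBEA chr13:34942270-35672736 (730.5 kb, plus strand) and LSAMP chr3:115802374-116445487 (643.1 kb, minus strand). The bounds of CSMD1 stand with its HP1b values. The 8 genes together hold 10.91 Mb, and the annotation used gives gene bounds without exons and introns.

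RefSeq start windows were matched for 6 of the 8 genes, with 9 start sites in all, and these windows were nearly free of listed peaks. Of 72 pairs of a window of 300 bases (250 before to 50 after a start) and a library, 1 held a peak, and 4 had a peak within 1 kb of the start. Over all 22132 such windows the share with a peak ran from 0.33% in an HP1a library of the HP1b knockdown to 3.94% in a wild-type HP1b library, so the members' low number is near the background. The 250 bases before 3 starts (RefSeq, GRCh38.p14, gene strand, 5′ to 3′) are shown with each CG dinucleotide in capitals, because they contrast the start of the whole FHIT gene with a start inside it and with WWOX. CG reads the same on both strands, so a search of either gives the same sites. They lie at chr3:61251453-61251702 (minus strand), chr3:60080910-60081159 (minus strand) and chr16:78099404-78099653 (plus strand), in that order.
FHIT first start: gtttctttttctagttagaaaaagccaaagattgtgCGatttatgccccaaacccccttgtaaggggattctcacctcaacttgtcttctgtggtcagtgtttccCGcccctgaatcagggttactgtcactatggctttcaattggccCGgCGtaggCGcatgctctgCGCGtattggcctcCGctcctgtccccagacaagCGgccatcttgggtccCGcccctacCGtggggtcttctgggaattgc
FHIT internal start: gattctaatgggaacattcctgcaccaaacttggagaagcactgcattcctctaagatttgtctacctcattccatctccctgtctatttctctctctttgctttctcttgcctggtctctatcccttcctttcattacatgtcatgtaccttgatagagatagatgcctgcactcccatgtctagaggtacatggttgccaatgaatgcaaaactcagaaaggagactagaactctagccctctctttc
WWOX start: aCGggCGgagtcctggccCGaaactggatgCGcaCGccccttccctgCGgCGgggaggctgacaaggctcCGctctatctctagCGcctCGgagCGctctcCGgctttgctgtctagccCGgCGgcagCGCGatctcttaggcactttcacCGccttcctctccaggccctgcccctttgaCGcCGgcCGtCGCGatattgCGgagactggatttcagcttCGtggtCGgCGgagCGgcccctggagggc
The FHIT gene start held 11 CG (GC content 54%), the internal FHIT start 0 (43.6%) and the WWOX start 27 (67.6%). Of all 22132 upstream windows 96.8% held a CG, with a median of 16 and a median GC content of 62%. The last sequence is the window before an NBEA start inside the gene (chr13:35476559-35476808, plus strand), shown because it holds the single peak of these windows. The capitals mark the 82 bases under that peak.
NBEA internal start: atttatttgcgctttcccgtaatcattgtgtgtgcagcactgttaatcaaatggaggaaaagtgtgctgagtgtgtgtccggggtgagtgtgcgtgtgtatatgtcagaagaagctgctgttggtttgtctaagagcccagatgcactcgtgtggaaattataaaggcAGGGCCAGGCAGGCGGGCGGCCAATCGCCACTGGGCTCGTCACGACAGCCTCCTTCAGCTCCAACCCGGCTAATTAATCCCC
The peak (chr13:35476727-35476900, 174 bases) came from replicate 2 of HP1b ChIP in the HP1a knockdown. Its fold enrichment, a ratio given by the authors like all folds here, was 2.90, with a −log10 p of 3.62. At the FHIT gene start the nearest wild-type HP1a peaks lay 4.68 and 11.3 kb away, and in the HP1b knockdown they lay 40.5 and 131.3 kb away. The groups overlapped at the starts of IMMP2L (9.65 and 39.8 kb against 36.6 and 9.64 kb) and LSAMP (127.4 and 28.1 kb against 52.3 and 131.3 kb). At the other matched starts the knockdown distances were longer without overlap. The HP1a lists of the knockdown were much shorter, and such distances were not measured at starts of other genes.

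The lists differed in length, which bears on every covered share below. They held 115564 to 134058 peaks for HP1a in wild type, 19092 to 19638 for HP1a in the HP1b knockdown, 239563 to 240090 for HP1b in wild type and 159536 to 225991 for HP1b in the HP1a knockdown. The weakest listed peak had a −log10 p of 3.43 in each HP1a library of the HP1b knockdown and of 2.54 to 2.80 in the other 6 libraries. The covered share is the percentage of a gene body lying under listed peaks. The relative coverage is the number of its covered bases per Mb of all bases covered in that library, so that libraries of unequal total coverage can be set side by side. No read counts were given, so depth is unknown, and where no peak was listed the protein may still be present.

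HP1a in wild-type cells lay over these genes as many narrow peaks, with WWOX, MACROD2 and FHIT covered most and LRP1B least. MACROD2 had 3.36 and 2.94% of its body under wild-type HP1a peaks, WWOX 2.87 and 3.35%, and FHIT 2.82 and 2.86%. CSMD1 had 1.84 and 2.08%, IMMP2L 1.44 and 1.33%, NBEA 1.14 and 0.485%, LSAMP 0.767 and 0.646%, and LRP1B 0.483 and 0.336%. The ranges of MACROD2 and WWOX overlapped, as did those of NBEA and LSAMP, so these neighbours did not differ beyond their spread, and FHIT lay just below WWOX. Among the 314 genes of at least 500 kb, MACROD2 ranked 47 by mean covered share, WWOX 50, FHIT 59, CSMD1 121 and IMMP2L 184, while NBEA ranked 262, LSAMP 275 and LRP1B 301. The members thus ranged from the upper to the lower part of the order of long genes. Median fold of the peaks was 3.17 to 3.49 in every member and wild-type HP1a library, a far smaller spread between genes than that of the covered share.

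**Figure D1:**
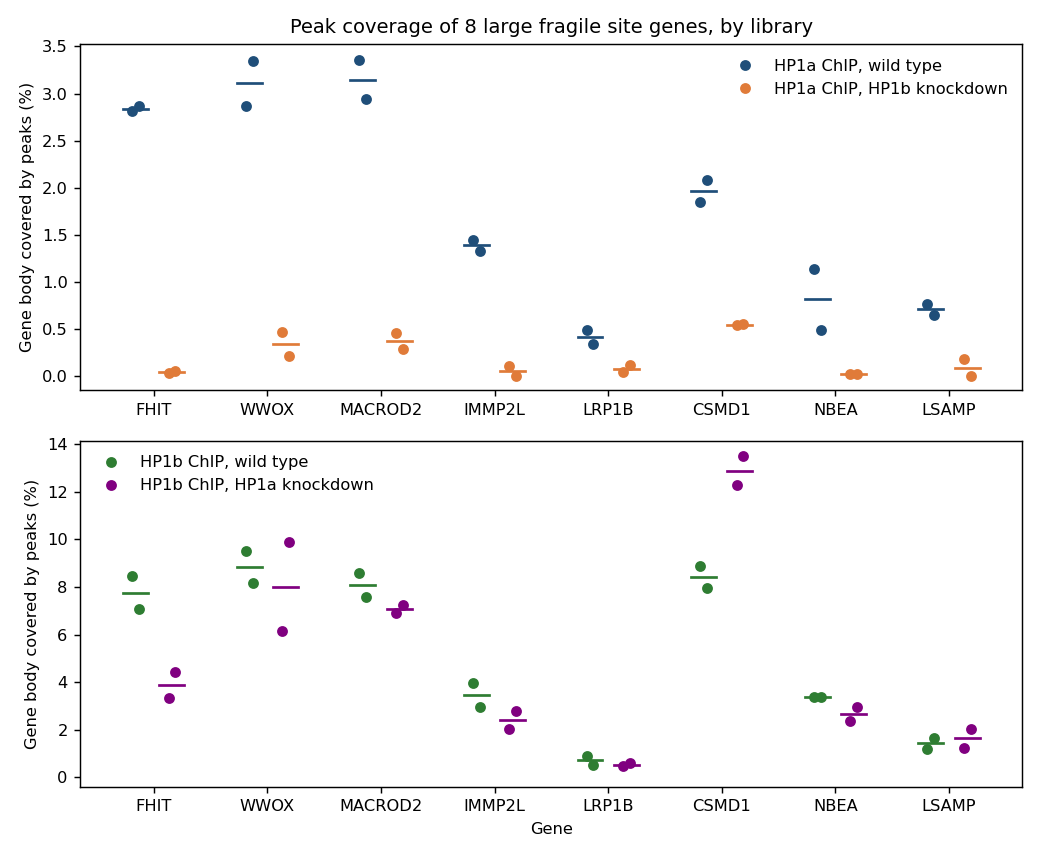
Covered share of each gene body (y axis, %, linear) by gene (x axis), with HP1a ChIP in the upper panel and HP1b ChIP in the lower, each on its own scale. Circles are the 2 libraries of a group and bars their mean. FHIT goes from 2.82 and 2.86% to 0.0290 and 0.0489% in HP1a ChIP, and CSMD1 from 8.88 and 7.94% to 12.3 and 13.5% in HP1b ChIP.

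With HP1b knocked down, less of each of the 8 gene bodies was listed under HP1a peaks, and FHIT was nearly empty. All 8 were lower without overlap between the groups, as were 95.9% of the 314 genes of at least 500 kb, and 0 were higher, against 1.27%. FHIT had 88 and 83 HP1a peaks in wild type against 1 and 2 in the knockdown. Its covered share was 2.82 and 2.86% (mean 2.84 ± 0.031, SD, n = 2) against 0.0290 and 0.0489% (0.0389 ± 0.014), a ratio of 73.0. Relative coverage at FHIT was 607 and 712 bases per Mb in wild type against 44.1 and 75.9 in the knockdown, 10.99-fold lower, with a fitted log2 difference of −3.36 (SE 0.38).

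The other enzyme genes were lower too, by smaller ratios. IMMP2L had 29 and 28 HP1a peaks in wild type against 2 and 0 in the knockdown, with covered shares of 1.44 and 1.33% against 0.104 and 0%. WWOX had 2.87 and 3.35% against 0.470 and 0.210%, and MACROD2 3.36 and 2.94% against 0.454 and 0.287%. In relative coverage WWOX overlapped between the groups (log2 −0.56, SE 0.48), whereas IMMP2L was 4.08-fold lower, its replicate 2 being listed at 0 in the knockdown, and MACROD2 was 1.28-fold lower (log2 −0.39, SE 0.25).

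Among the membrane and trafficking genes, NBEA stood nearest to FHIT and CSMD1 farthest from it. NBEA had 20 and 10 HP1a peaks in wild type and 1 in each knockdown library, with covered shares of 1.14 and 0.485% against 0.0244 and 0.0251%. LSAMP had 0.767 and 0.646% against 0.179 and 0%, and LRP1B 0.483 and 0.336% against 0.0376 and 0.115%. CSMD1, with the smallest ratio of wild type over knockdown (3.61), had 77 and 86 peaks in wild type and 25 in each knockdown library, over 1.84 and 2.08% against 0.539 and 0.551%. Scaled to the much shorter HP1a lists, the relative coverage of CSMD1 was higher in the knockdown, at 1122 and 1172 bases per Mb against 544 and 710 (log2 0.88, SE 0.17). The NBEA relative coverage was 4.82-fold lower, and those of LRP1B and LSAMP overlapped between the groups.

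The direction of the covered share was shared by the long genes at large. In relative coverage the median fitted log2 (limma) was −0.98 over the 8 members, −0.89 over 313 genes of at least 500 kb and −1.03 over all 8504 genes fitted. Among peaks with a −log10 p of at least 4, all 8 members had a lower covered share in the knockdown without overlap. CSMD1 then had 0.959 and 0.985% in wild type against 0.380 and 0.396%. When the same number of top peaks, 19092, was taken from each library, 5 members had a lower mean and 3 a higher one. With these equal lists FHIT, at 0.417 and 0.506% against 0.0290 and 0.0489%, IMMP2L and NBEA remained lower without overlap. CSMD1, at 0.248 and 0.430% against 0.539 and 0.551%, and LRP1B, at 0.0271 and 0.0259% against 0.0376 and 0.115%, were higher. The LRP1B values of the knockdown rest on 3 and 4 peaks. How many other long genes were lower or higher without overlap under either alternative was not counted. For covered shares the equal lists were chosen after seeing the data. Without scaling to total coverage the fitted difference of CSMD1 was −1.82 and that of LRP1B −2.36, the opposite direction from the scaled fit, and the scaling moved the median log2 of all genes from −2.05 to −1.03.

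**Figure D2:**
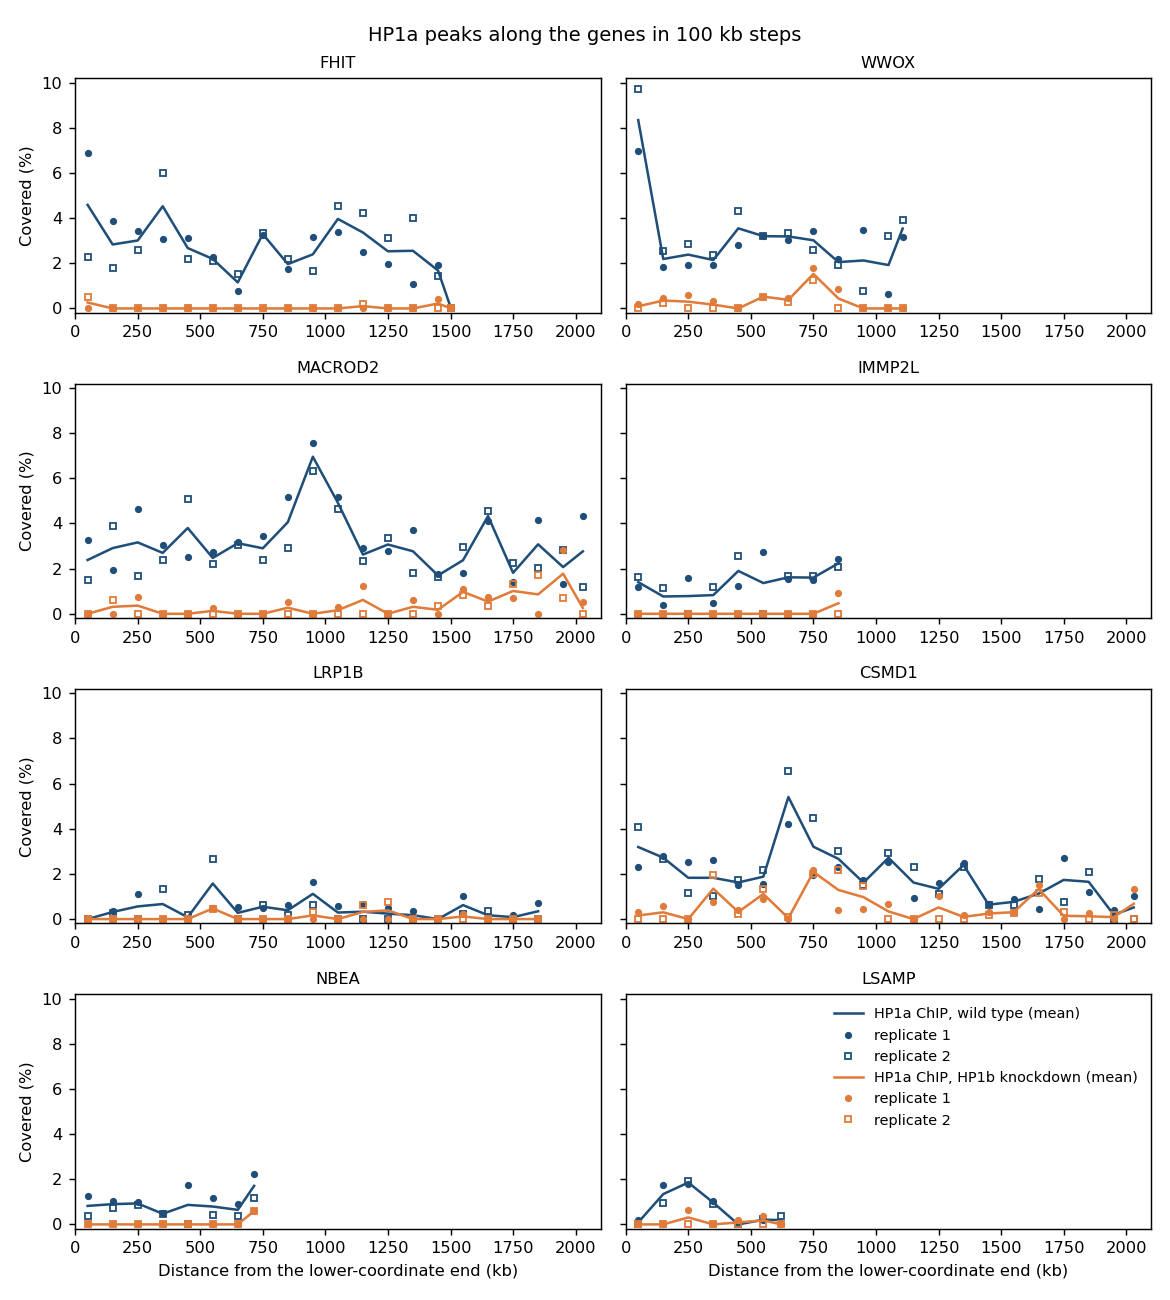
Covered share in HP1a ChIP (%) in steps of 100 kb along each gene, counted from its lower coordinate (x axis, kb from that end), for both wild-type libraries and both HP1b knockdown libraries. Circles are replicate 1, open squares replicate 2 and lines the means. FHIT is listed at 0 in both knockdown libraries in 12 steps that held wild-type peaks in both libraries, while CSMD1 is at 0 in both in 2 of its 21 steps. Emptied steps were not counted in other long genes.

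Read along the genes in steps of 100 kb from the lower coordinate, the wild-type HP1a peaks of FHIT, WWOX and MACROD2 were spread over nearly the whole length. FHIT had wild-type HP1a peaks of both libraries in each of its 15 full steps, and its longest stretch without a peak was 67.7 and 63.0 kb. In the HP1b knockdown that stretch was 1463 kb, or 97.3% of the gene, and 1110 kb, or 73.8%. Its 3 remaining peaks lay in the first, the 12th and the 15th step. Over the 113 steps of the 8 genes, 86 were lower without overlap and 0 were higher, against 68.4% and 0.575% of 2785 steps of the long genes. In 42 of the 113 steps both wild-type libraries had a peak and neither knockdown library did. Of these, 12 were in FHIT, 7 in MACROD2, 6 each in IMMP2L and NBEA, and 2 in CSMD1. Emptied steps were not counted in the other long genes, and the knockdown lists were much shorter, so these counts are a description only. IMMP2L had no HP1a peak at all in replicate 2 of the knockdown, and neither had LSAMP. In NBEA the knockdown left 720 and 719 kb without a peak, with its 1 peak per library in the last step.

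In wild-type cells listed HP1b peaks covered more of each gene than listed HP1a peaks did. The antibodies of these ChIPs differ, and the wild-type HP1b lists covered 158.1 and 157.1 Mb against 69.85 and 60.44 Mb for HP1a. A difference in the amount of bound protein therefore cannot be told apart from a difference in antibody or list length. WWOX had 9.52 and 8.18% of its body under HP1b peaks, CSMD1 8.88 and 7.94%, MACROD2 8.60 and 7.57% and FHIT 8.44 and 7.07%, and the ranges of these 4 overlapped. IMMP2L followed with 3.98 and 2.94%, NBEA with 3.37 and 3.38%, LSAMP with 1.21 and 1.63%, and LRP1B with 0.905 and 0.524%. IMMP2L and NBEA overlapped, and LSAMP lay above LRP1B in both libraries. The ratio of HP1b over HP1a covered share ran from 1.75 in LRP1B and 2.01 in LSAMP to 4.15 in NBEA and 4.28 in CSMD1.

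Long genes at large also had a higher covered share for HP1b than for HP1a. HP1b was higher than HP1a without overlap in 8 of 8 members and in 93.9% of the genes of at least 500 kb, and lower in 0, against 0.318%. After scaling, no member passed the threshold (limma, Benjamini-Hochberg). Of the 12350 genes fitted 0.00% were called in either direction, and 505 were lower and 1056 higher at an unadjusted p under 0.05. The largest fitted differences were 0.88 in NBEA (SE 0.37, adjusted p 0.420) and 0.82 in CSMD1 (SE 0.20, adjusted p 0.355). In CSMD1 the relative coverage was 544 and 710 bases per Mb for HP1a and 1156 and 1042 for HP1b, and in 13 of its 21 steps it was higher for HP1b without overlap, against 22.3% of the steps of long genes, and lower in 1, against 17.6%. FHIT (log2 0.16, SE 0.19), MACROD2 (0.08, SE 0.16) and IMMP2L (0.025, SE 0.23) lay near 0 on this scaled measure. Among peaks with a −log10 p of at least 4 the covered share was higher for HP1b without overlap in only 2 members, and the fitted difference of CSMD1 was −0.0325. Leaving out 1 library changed these calls: without HP1a replicate 2 of wild type the adjusted p was 0.00110 for CSMD1, and without HP1a replicate 1 it was 0.00668 for NBEA. Without scaling to total coverage 4 members were called higher for HP1b: CSMD1 (log2 2.09, adjusted p 0.0387), FHIT (1.44, 0.0411), MACROD2 (1.36, 0.0411) and WWOX (1.5, 0.0423).

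**Figure D3:**
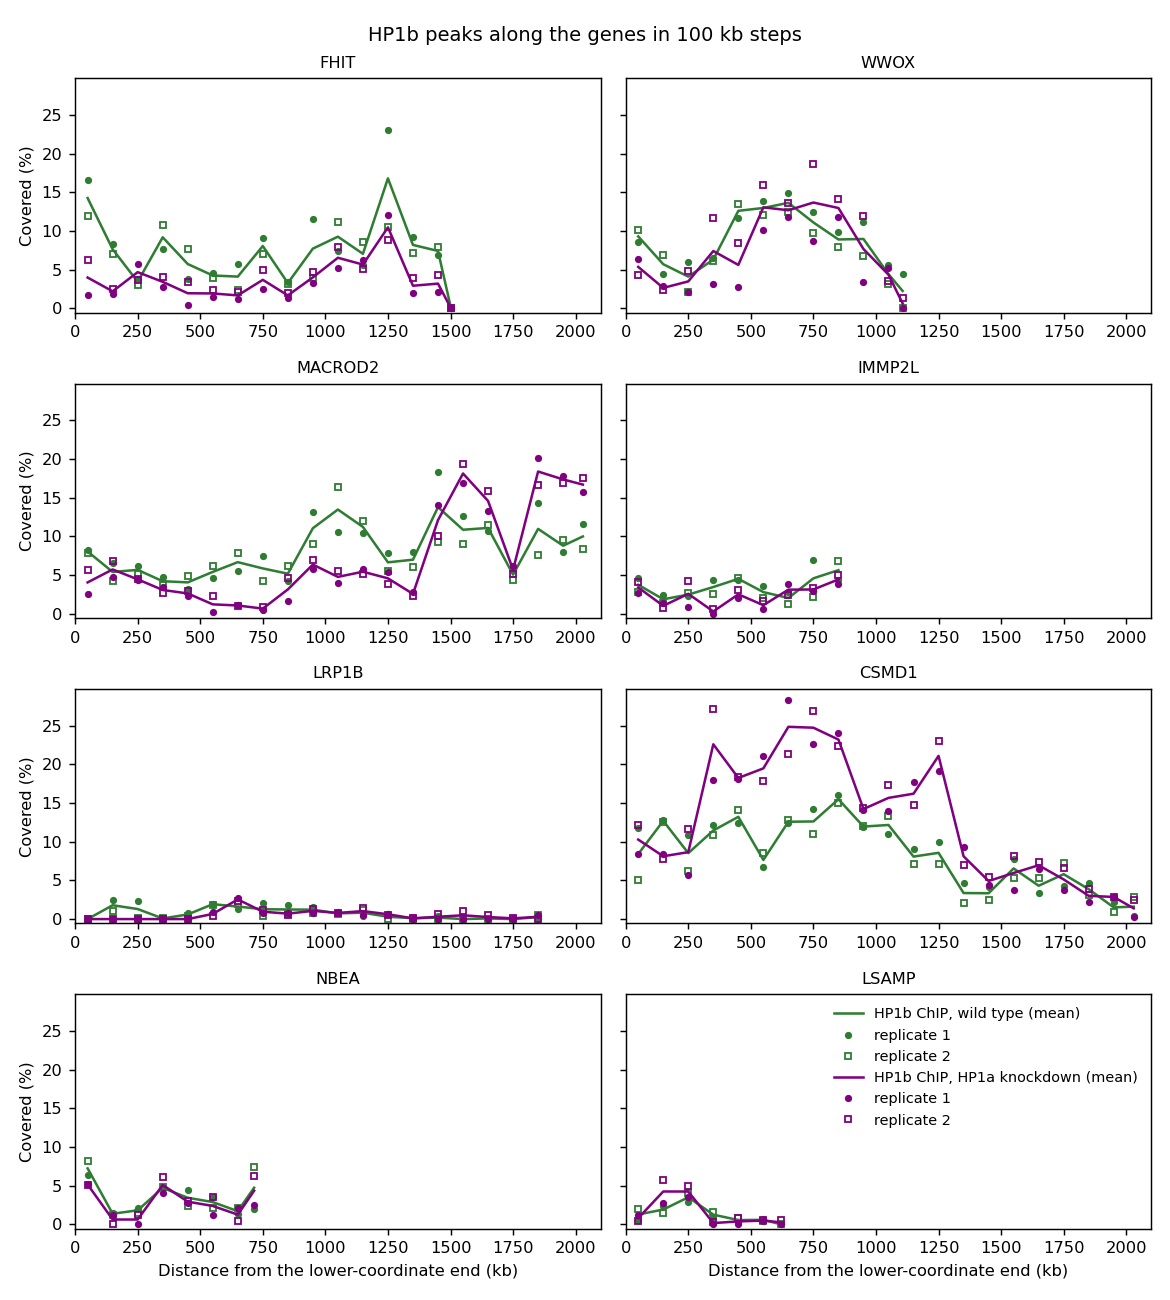
Covered share in HP1b ChIP (%) in steps of 100 kb along each gene, counted from its lower coordinate (x axis, kb from that end), for both wild-type libraries and both HP1a knockdown libraries, with circles for replicate 1, open squares for replicate 2 and lines for the means. The knockdown lines lie above wild type over steps 4 to 13 of CSMD1 and most of steps 15 to 21 of MACROD2 and below it over most of FHIT.

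With HP1a knocked down, HP1b covered share was lower in FHIT and higher in CSMD1, each without overlap between the groups. Such differences were common, with 43.3% of the 314 genes of at least 500 kb lower and 19.7% higher without overlap. Neither member passed the threshold in relative coverage. FHIT had 201 and 167 HP1b peaks in wild type against 81 and 109 in the knockdown, over 8.44 and 7.07% (mean 7.75 ± 0.97, SD, n = 2) against 3.34 and 4.40% (3.87 ± 0.75), a ratio of 2.004. Scaled to total coverage it had 803 and 677 bases per Mb against 424 and 402 (log2 −0.83, SE 0.17, adjusted p 0.144, limma).

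CSMD1 (chr8:2935361-4994914, 2060 kb) had 286 and 268 HP1b peaks in wild type against 331 and 362 in the knockdown. They covered 8.88 and 7.94% (8.41 ± 0.66) against 12.3 and 13.5% (12.9 ± 0.87), 1.53-fold higher, and the median peak width was 504.5 and 521.5 bp against 617 and 647.5 bp. Peaks of this complement regulator gene were therefore both more numerous and wider. Wider peaks were not particular to it, since the median width over the whole lists was 533 and 530 bp in wild type against 573 and 553 bp in the knockdown. Its relative coverage was 1156 and 1042 bases per Mb in wild type against 2134 and 1686 in the knockdown (log2 0.79, SE 0.17, adjusted p 0.144, limma). The median fold of its peaks was 3.01 and 3.16 in wild type against 2.91 and 3.05 in the knockdown, and these ranges overlapped.

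The other 6 genes stayed nearer to their wild-type HP1b coverage. Among the enzymes, IMMP2L had 3.98 and 2.94% in wild type against 2.01 and 2.80% in the knockdown (log2 of relative coverage −0.35, SE 0.22, adjusted p 0.400). MACROD2 had 8.60 and 7.57% against 6.90 and 7.26% (log2 −0.014, SE 0.19, adjusted p 0.975), and WWOX 9.52 and 8.18% against 6.14 and 9.88% (log2 −0.0054, SE 0.17, adjusted p 0.990). WWOX also held the widest HP1b peak of the 8 genes, 6233 bp in replicate 2 of the knockdown.

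NBEA, the trafficking scaffold, had 3.37 and 3.38% against 2.38 and 2.94% (log2 −0.17, SE 0.20, adjusted p 0.651). The receptor gene LRP1B had 0.905 and 0.524% against 0.459 and 0.586% (log2 −0.23, SE 0.33, adjusted p 0.735). LSAMP, the adhesion molecule, had 1.21 and 1.63% against 1.23 and 2.03% (log2 0.33, SE 0.29, adjusted p 0.541). Groups overlapped in covered share in WWOX, LRP1B and LSAMP.

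**Figure D4:**
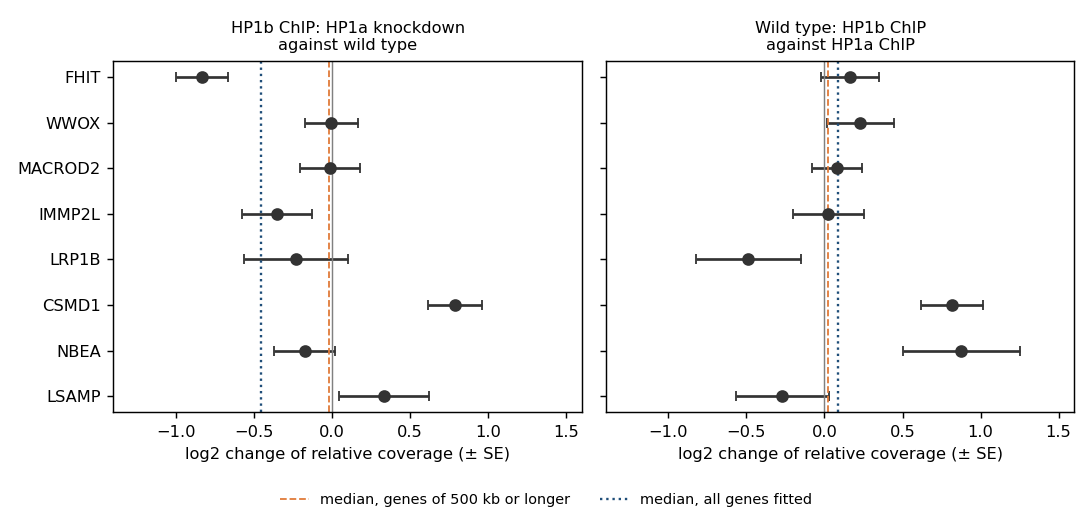
Fitted log2 differences of relative coverage (x axis; points with SE bars, n = 2 libraries per group) for the 8 genes, in HP1b ChIP of the HP1a knockdown against wild type (left) and in wild type for HP1b against HP1a (right); dashed and dotted lines are the medians of long genes and of all genes fitted. On the left FHIT lies at −0.83 and CSMD1 at 0.79, and on the right CSMD1 lies at 0.82 and NBEA at 0.88.

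No gene of the 12363 fitted passed the threshold in this comparison (0.00% called in either direction, limma), with 2425 lower and 614 higher at an unadjusted p under 0.05. Covered share was lower without overlap in 4 members (FHIT, MACROD2, IMMP2L and NBEA) and higher in 1 (CSMD1), against 43.3% and 19.7% of the genes of at least 500 kb. The median fitted log2 was −0.094 over the members, −0.020 over long genes and −0.45 over all genes. The calls turned on single libraries: without HP1b replicate 1 of the HP1a knockdown the adjusted p was 0.00195 for FHIT and 0.0263 for CSMD1, and without its replicate 2 they were 0.00628 and 0.000261. Without either wild-type library they were at least 0.299. Those fits have 1 library in a group, which is assumed to vary like the other group. Among peaks with a −log10 p of at least 4, FHIT had 1.02 and 1.01% against 0.367 and 0.981%, with replicate 2 of the knockdown close to wild type, and CSMD1 had 0.797 and 1.47% against 2.40 and 5.41%. Of the 8 members 2 then had a lower and 6 a higher mean, and without overlap 1 was lower and 3 were higher. With equal lists of 159536 top peaks 4 had a lower and 4 a higher mean. Only FHIT then stayed lower without overlap, and MACROD2, IMMP2L and NBEA overlapped. CSMD1 and WWOX (5.553 and 5.598% against 6.143 and 7.625%) were higher without overlap. Under these 2 alternatives the other long genes were not counted.

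The wild-type comparison of HP1b with HP1a shares its libraries with both knockdown comparisons, which share none with each other, and in the latter the fitted log2 differences of all 8 members stand side by side as follows. FHIT had −3.36 for HP1a and −0.83 for HP1b, and CSMD1 0.88 and 0.79. IMMP2L had −2.92 and −0.35, NBEA −1.85 and −0.17, WWOX −0.56 and −0.0054, and MACROD2 −0.39 and −0.014. The fitted signs were opposite in LRP1B, with 0.12 (SE 0.70) and −0.23 (SE 0.33), and in LSAMP, with −1.401 (SE 1.68) and 0.33 (SE 0.29). Both LRP1B values and the −1.401 of LSAMP were smaller than their SE, so an opposite direction is not established in either gene. The −2.92 of IMMP2L and the −1.401 of LSAMP depend on the pseudocount, since both genes were listed at 0 in HP1a replicate 2 of the HP1b knockdown. With the pseudocount multiplied by 4 they were −1.93 and −0.632. Whether the effects of the 2 knockdowns differ was not tested.

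MACROD2, whose relative HP1b coverage as a whole differed little, was made of a part that was lower and a part that was higher in the HP1a knockdown. In its first 14 steps (chr20:13995516-15395515), the HP1b covered share was 7.18 and 7.10% in wild type against 3.16 and 3.95% in the knockdown, 2.01-fold lower. In steps 15 to 21 (chr20:15395516-16053197) it was 11.6 and 8.56% against 14.9 and 14.3%, 1.45-fold higher. HP1a in the HP1b knockdown was lower in both parts: the first went from 3.72 and 3.11% to 0.263 and 0.0440%, and the second from 2.59 and 2.56% to 0.860 and 0.805%. These bounds were set after the values were seen, so the values are a description with no test.

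In CSMD1 HP1b coverage was higher in the HP1a knockdown over the middle of the gene, but not only there. Step 14, beyond the middle stretch given below, had 4.64 and 2.09% in wild type against 9.26 and 6.99% in the knockdown. The bounds of the stretches of CSMD1, WWOX and LRP1B were also set after the values were seen, so their values and folds are descriptions that the choice of bounds helps to fix. Steps 4 to 13 (chr8:3235361-4235360) had 11.6 and 11.2% in wild type against 19.7 and 20.4% in the HP1a knockdown, 1.76-fold higher. The 3 steps before them had 11.8 and 7.93% against 7.53 and 10.5%, and the 8 steps after them 4.13 and 3.69% against 4.32 and 5.64%, so the groups overlapped only in the first of these 2 ends. Relative coverage was higher without overlap in 14 of 21 steps of CSMD1 and lower in 1, while in FHIT it was lower in 10 of 16 steps and higher in 0. Over all 113 steps 27.4% were lower and 21.2% higher, near the 25.3% and 24.6% of the steps of long genes. With equally long lists of top peaks, an alternative added after seeing the data, the first MACROD2 part had 5.84 and 5.38% against 3.16 and 3.10%, the second 9.77 and 7.41% against 14.9 and 13.2%, and the CSMD1 middle 9.27 and 9.60% against 19.7 and 19.4%. Among peaks with a −log10 p of at least 4, the first MACROD2 part overlapped between the groups (1.18 and 0.766% against 0.434 and 1.20%), whereas the second had 0.648 and 1.68% against 3.34 and 5.01% and the CSMD1 middle 1.33 and 2.41% against 4.09 and 9.47%.

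WWOX showed a weaker form of this unevenness. Its first 5 steps had HP1b over 7.47 and 7.77% in wild type against 3.47 and 6.37% in the HP1a knockdown, and steps 6 to 9 had 12.8 and 10.6% against 10.6 and 15.6%, which overlap. HP1a in the HP1b knockdown was listed at 0 in both libraries over its last 3 steps, from 2.13 and 2.10% in wild type. In LRP1B the first 5 steps (chr2:140231423-140731422) were listed at 0 in both HP1b libraries of the HP1a knockdown and in both HP1a libraries of the HP1b knockdown, from 1.15 and 0.362% and from 0.299 and 0.351% in wild type.

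The step profiles of replicates were more alike for HP1b than for HP1a. Across the 105 full steps of the 8 genes, Pearson's r between replicates was 0.669 for wild-type HP1a, 0.501 for HP1a in the HP1b knockdown, 0.832 for wild-type HP1b and 0.916 for HP1b in the HP1a knockdown. These pooled values also hold the differences in coverage between genes. Within single genes the value for wild-type HP1a ran from −0.532 in NBEA to 0.919 in LSAMP. LSAMP alone had a lower value for wild-type HP1b (0.736) than for wild-type HP1a. Within FHIT, over 15 steps, r was 0.0092 for wild-type HP1a and 0.541 for wild-type HP1b. Steps share a gene and a library and are not independent, so these are descriptions. The wild-type HP1a profile along FHIT was thus unlike between replicates, although the total covered share was alike.

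The 500 kb on each side of FHIT and of MACROD2 went the way of the adjoining gene body. Beside FHIT, HP1b covered 11.97 and 12.95% of the flank at lower coordinates in wild type against 5.49 and 5.47% in the HP1a knockdown, and 7.69 and 9.01% against 3.11 and 4.69% of the other flank. HP1a over the lower flank of FHIT was 4.73 and 4.66% in wild type against 0.161 and 0.321% in the HP1b knockdown. Such flanks were not particular to FHIT. The lower flank of WWOX had 7.32 and 12.2% HP1b coverage against 2.94 and 6.49%, and mean HP1a coverage was lower in the HP1b knockdown in both flanks of every member, with groups that overlapped only in the lower flank of LRP1B. Flanks of other long genes were not analysed here.

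At CSMD1 the flank at lower coordinates had 8.17 and 8.85% HP1b coverage in wild type against 12.2 and 17.6% in the HP1a knockdown, and the other flank 3.89 and 3.46% against 1.55 and 4.47%, which overlap. Beside MACROD2 the lower flank went from 6.41 and 6.11% to 3.21 and 4.30% and the higher flank from 10.1 and 9.42% to 13.1 and 12.0%, each in the direction of the gene part it adjoins. Beside LRP1B, itself little covered, the lower flank had 3.40 and 2.69% against 5.63 and 5.80%. The lower flank of NBEA had 8.59 and 7.58% against 4.17 and 4.21%.

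Few places in these genes were listed in both replicates. Regions under HP1a peaks of both wild-type libraries numbered 85 in the 8 genes, 35 of them in MACROD2, 17 in FHIT, 12 in WWOX and 9 in CSMD1, and there were 3 in the HP1b knockdown. For HP1b the number was 393 in wild type against 385 in the HP1a knockdown. Within that near-equal total, CSMD1 went from 107 to 193 and FHIT from 83 to 24, while MACROD2 went from 116 to 95 and WWOX from 50 to 41. Regions of this kind were not counted outside the 8 genes. In the 8 genes 18.9 and 20.0% of wild-type HP1a peaks overlapped, by at least 1 base, a peak listed in the other replicate, against 18.4 and 21.4% in the whole lists, and for wild-type HP1b 36.3 and 40.5% against 35.1 and 35.2%. The members' peaks repeated about as often as those of the lists.

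Of these 85 wild-type HP1a regions, 62 held a peak of at least 1 wild-type HP1b library and 28 held peaks of both. Of the same 85, 39 were met by at least 1 HP1b library of the HP1a knockdown and 14 by both, and 3 by at least 1 HP1a library of the HP1b knockdown. In FHIT, 13 of 17 were met by at least 1 wild-type HP1b library and 9 by both, and in the HP1a knockdown 6 by at least 1 and 0 by both. The same counts were not made for regions of other genes, and the HP1a lists of the HP1b knockdown were much shorter. These counts therefore do not show whether the members differ from other genes. A FHIT region at chr3:60779405-60780903, 1499 bp shared by the wild-type HP1b libraries with folds of 3.21 and 3.25, held a peak in 6 of the 8 libraries, the 2 HP1a libraries of the HP1b knockdown being without. In CSMD1, chr8:3669532-3669838 held a peak in 7 of the 8 libraries.

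A list of 12 other large genes placed at fragile sites (DMD, CTNNA3, CNTNAP2, DPYD, DAB1, IL1RAPL1, RORA, AUTS2, DLG2, NAALADL2, NKAIN2 and MAGI2) was drawn up from general knowledge with earlier results of these data known, so its values are set beside the members' as a description and support nothing about them. In HP1a ChIP with HP1b knocked down, 2 of the 12 were called lower and 1 higher at an adjusted p under 0.05 (limma), against 27.0% and 1.71% of the 8504 genes fitted and 6.39% and 7.03% of the 313 fitted genes of at least 500 kb. The median log2 of the 12 was −0.80. NKAIN2, a gene for a protein that interacts with the sodium pump, had 2.12 and 2.02% HP1a coverage against 0.0308 and 0.0302% (log2 −3.10, SE 0.37, adjusted p 0.0300). RORA, an orphan nuclear receptor, had 2.48 and 2.04% against 0.0321 and 0.0657% (log2 −2.65, SE 0.51, adjusted p 0.0410).

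AUTS2, a gene of neuronal development, was higher in relative coverage although its covered share went from 4.19 and 4.94% to 1.62 and 1.94% (log2 1.37, SE 0.21, adjusted p 0.0302). Under a pseudocount multiplied by 4, no filter, peaks with a −log10 p of at least 4 or the same number of peaks, no gene of the whole table was called in this comparison, with 408 to 2926 lower and 189 to 441 higher at an unadjusted p under 0.05. Without either wild-type HP1a library in turn, at most 1 gene was called lower and at most 28 higher. In HP1b ChIP with HP1a knocked down, 0 of the 12 were called. The 3 with the highest wild-type HP1b covered share were AUTS2, DAB1 (an adaptor of reelin signalling) and RORA. AUTS2 had 18.0 and 17.3% against 24.1 and 23.4% (log2 0.60, SE 0.21, adjusted p 0.178) and DAB1 5.26 and 4.22% against 4.38 and 5.50% (log2 0.23, SE 0.18, adjusted p 0.499). RORA had 4.49 and 4.61% against 1.67 and 3.06% (log2 −0.82, SE 0.22, adjusted p 0.144), and NKAIN2, also called for HP1a, had 4.23 and 3.29% against 2.12 and 2.09%, each without overlap. Between HP1b and HP1a in wild type 0 of the 12 were called, with log2 differences of 0.68 in AUTS2 (SE 0.20, adjusted p 0.355), 0.23 in DAB1 (SE 0.26, adjusted p 0.810) and −0.26 in RORA (SE 0.18, adjusted p 0.655).

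By likeness of covered share over the 8 libraries (Euclidean distance of log2 of the covered percentage plus 0.1), the non-member genes of at least 500 kb nearest to the members' median profile were EYS on chromosome 6 (distance 0.583), BBS9 on chromosome 7 (0.625), GLIS3 on chromosome 9 (0.650) and CDK14 on chromosome 7 (0.732). EYS had 1.80 and 2.002% HP1a coverage in wild type against 0.105 and 0.129% in the HP1b knockdown, and 4.94 and 4.72% HP1b coverage in wild type against 3.02 and 3.24% in the HP1a knockdown. None of the 4 is in the list of other fragile site genes. They were picked for their likeness and the members' own distances are not given, so how closely they match is a description only.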

How the data were processed

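The data were ChIP-seq broad peak lists of HP1a and HP1b from 8 MCF10A libraries, sequenced as paired reads of 76 bases per the labels. The submitters' processing notes name the build hg38 and the tools Trimmomatic, Bowtie2, SAMtools and MACS3. Versions, calling settings and any input library: not given in the sources used here. Each peak in the deposited lists has a score (10 times the −log10 q), a fold enrichment as a ratio, a −log10 p and a −log10 q. Each deposited list belongs to a single library. No read counts were given, so depth is unknown and no counting interval or floor was set.

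Only chromosomes 1 to 22 and X were kept, overlapping peaks of a list were merged when bases were counted, and gene bounds came from RefSeq on GRCh38.p14. The covered share is the percentage of a gene body under peaks, and the relative coverage is covered bases per Mb of all covered bases of the library. Relative coverage of all protein-coding genes that had peaks in 2 or more of a comparison's 4 libraries was fitted with limma 3.58.1 (variance trend, R 4.3.3). The scale was log2 of the value plus a pseudocount set at the 10th percentile of values over 0 (6.8, 2.50 and 3.05 bases per Mb for HP1a, HP1b and the wild-type comparison). P-values were adjusted by Benjamini-Hochberg over all genes fitted, with a threshold of 0.05, and only the libraries of a comparison entered its fit, with no covariate. Coverage and fits were tested on simulated data first. The 8 genes and the lists were chosen with earlier results of these data known. Some genes of the other fragile site list are not reported here and were left out of its counts. Besides the 8 genes, the text names genes of the other fragile site list that were called in a fit (at most 4, otherwise the 3 with the highest wild-type HP1b covered share) and the 4 long genes nearest to the members' median profile. Alternatives were a pseudocount multiplied by 4, no filter, no scaling, peaks with a −log10 p of at least 4, equally long lists of top peaks, a replicate block, an overlap of at least 50% of the peak and each library left out. The labels do not say whether same-numbered libraries were processed together. Deviations of same-numbered libraries correlated at 0.0218, 0.0487 and −0.0121, which cannot settle this, and the main fits used no pairing.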

Additional observations from a re-analysis of the deposited data

How the results depend on the processing

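In HP1a ChIP with HP1b knocked down, 2298 genes were called lower and 145 higher (limma). With the pseudocount multiplied by 4, no filter, peaks of −log10 p at least 4 or equally long lists, 0 were called lower and 0 higher, with 408 to 2926 lower and 189 to 441 higher at an unadjusted p under 0.05. No scaling gave 4521 lower and 42 higher, and the replicate block 0 and 20 (3572 lower and 220 higher unadjusted). Leaving out each library gave 0 to 2030 lower and 22 to 1008 higher. For HP1b with HP1a knocked down, against 0 and 0, equally long lists gave 1 lower and 11 higher, the block 243 and 103, and leave-one-out 74 to 1686 and 69 to 270. For HP1b against HP1a in wild type, against 0 and 0, no scaling gave 197 higher, the block 20 lower and 4 higher, and leave-one-out 1 to 202 and 1 to 217. Whether equal replicate numbers mark pairs is not known. With the block, FHIT and CSMD1 in HP1b ChIP of the HP1a knockdown had an adjusted p of 0.0355 and 0.0246 (limma).

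Fitted log2 differences of members that changed sign were, for HP1a, LRP1B −2.36 and CSMD1 −1.82 without scaling, WWOX 0.321 with −log10 p at least 4 and 0.126 with equally long lists, and with each library left out LRP1B −0.66 to 0.907 and LSAMP −3.63 to 0.694. For HP1b they were WWOX 0.151 with equally long lists, and with each library left out WWOX −0.109 to 0.0981, MACROD2 −0.217 to 0.188 and LRP1B −0.605 to 0.149. In the wild-type comparison they were LRP1B 0.749 and LSAMP 0.947 without scaling, FHIT −0.056, MACROD2 −0.0308, LRP1B 0.277 and CSMD1 −0.0325 with −log10 p at least 4, and with each library left out IMMP2L −0.185 to 0.234 and MACROD2 −0.00491 to 0.17. The cause was not tested. The fitted difference of FHIT for HP1a ranged from −5.70 without scaling to −3.0 with the pseudocount multiplied by 4. FHIT was chosen with its low HP1a coverage known, so this range is a description with no test.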
